A study of Mus musculus with 13 samples.

Results

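Regulatory T cells (Tregs) of the spleen were compared with newly formed, "de novo" Tregs of the thymus in wild-type mice, using 4 of the 13 RNA sequencing libraries of the series: 2 splenic and 2 thymic. The libraries were chosen by their labels alone, so no measured value entered the choice. All 4 came from cRel+/+Foxp3rfp animals on the C57BL6/J strain, in which c-Rel is intact and a red fluorescent reporter marks cells expressing Foxp3. The cell type given for the spleen is "tTreg cells" and for the thymus "de novo Treg cells". No treatment is named, and the age and sex of the animals, the sort gates and any pooling are not stated. CD4 T cells were enriched magnetically and then sorted by flow cytometry. The 4 libraries of the same populations from cRel-/-Foxp3rfp mice, which lack the NF-kB subunit c-Rel, stand beside the wild-type values and share in the estimate of the spread. The labels do not say which libraries came from separate animals, so every p-value is set against library-to-library spread alone, part of which may be technical.

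Tregs restrain immune responses and depend on the transcription factor Foxp3. They arise in the thymus from CD4 thymocytes that receive strong T cell receptor and IL-2 signals, leave it through receptors for sphingosine-1-phosphate and chemokines, and circulate through spleen and lymph nodes. In the periphery a part of them differentiates further into effector Tregs, which carry receptors for inflamed tissue and secrete suppressive mediators such as IL-10. Some peripheral Tregs can also return to the thymus.

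Depth was high and even. Between 27455039 and 34319459 counts fell on genes in the 4 libraries, and 3 counts, taken as the floor, correspond to between 0.0874 and 0.109 CPM (library-scaled counts, here with TMM normalization factors). Cd3d, a chain of the T cell receptor complex, stood at 775 and 821 CPM in de novo and 861 and 823 CPM in splenic Tregs. Foxp3 stood at 797 and 789 against 732 and 690.2 CPM, a log2 fold change of −0.16 (standard error (SE) 0.12, adjusted p = 0.4 by edgeR), and all 4 libraries carry this defining Treg gene. Tissue, stage and count table coincide here: each population was counted in a table of its own, and a difference between tables cannot be told apart from one between cells. Since these are bulk samples, fewer cells of a type and less RNA per cell cannot be told apart either. Y-linked genes were read in all 4 libraries, so each held RNA of male cells. Ddx3y stood at 83 and 30 CPM in de novo and 44.6 and 53.5 CPM in splenic Tregs, and Kdm5d at 35.7 and 10.8 against 22.2 and 26 CPM. The reason for the gap between the de novo replicates was not tested. Across all genes the log2 fold change had a rank correlation of −0.067 with gene length and 0.084 with GC content, as a description across genes that are not independent.

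The populations differed in 2961 of 12532 genes tested (23.6%; edgeR quasi-likelihood test, adjusted p under 0.05, the rule for "called", "rose" and "fell" throughout). Expression was higher in splenic Tregs for 1508 genes (12%) and lower for 1453 (11.6%), and the median log2 fold change of all genes was 0.005. The counts of list members given below are to be read against these shares. At least 2-fold differences were fewer, with 511 genes higher (4.08%) and 412 lower (3.29%), 7.37% in all, and 188 and 160 of these passed 4-fold. The splenic and de novo libraries did not overlap for 68.7% of all genes, so a gap between the groups alone says little about a gene. Leaving out 1 wild-type library left the lone library of its group to vary like the others and lowered these counts to 720 higher and 732 lower without de novo replicate 1, 970 and 875 without de novo replicate 2, 814 and 752 without splenic replicate 1, and 713 and 637 without splenic replicate 2. Leaving out a knockout library gave between 1359 and 1978 higher and between 1236 and 1995 lower. In a fit over all 13 libraries, with a common coefficient of variation of 0.189 against 0.114, 457 rose and 516 fell, and no call turned its direction in any setting tried.

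**Figure D1:**
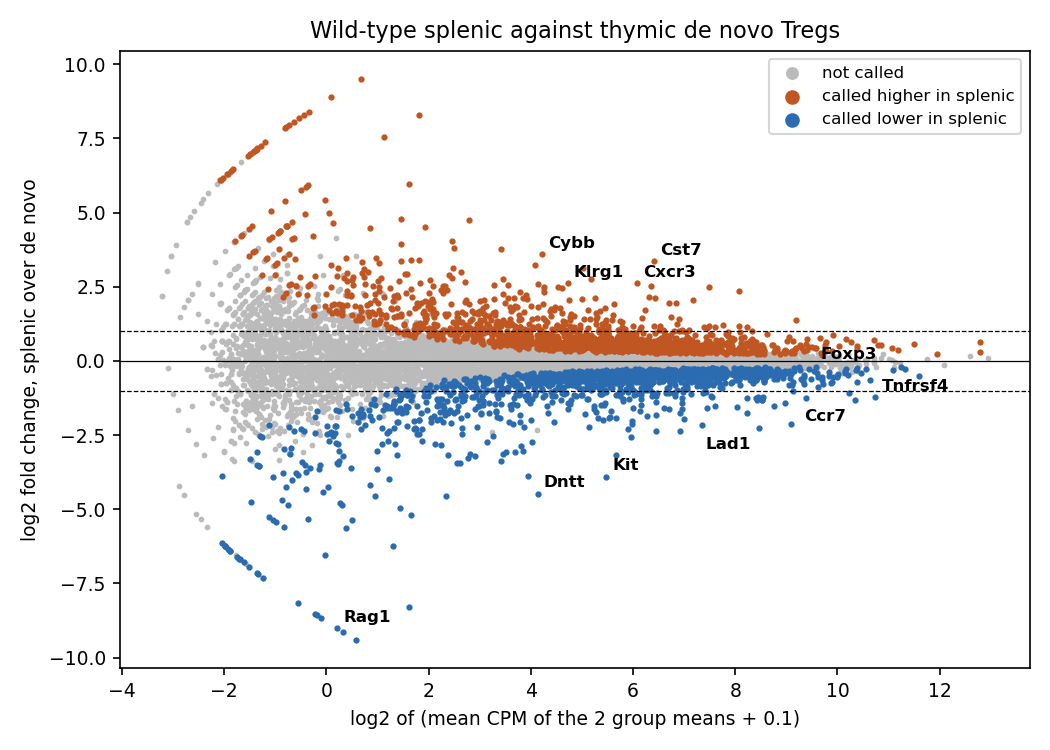
Log2 fold change of each gene (splenic over de novo, wild type) against the log2 of its mean level in CPM; orange and blue points are the 1508 genes called higher and 1453 called lower, grey points were not called and dashed lines mark 2-fold. The curved arms at low levels are genes with 0 counts in 1 population, whose fitted fold is not a measured size.

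The 12 largest rises among genes of at least 10 CPM included Cst7 and Cybb. Cst7, which encodes the protease inhibitor cystatin F, stood at 13.7 and 16.2 CPM in de novo Tregs and 155 and 153 CPM in splenic Tregs (log2 fold change 3.36, SE 0.12, adjusted p = 2.1e-07). Cybb, the catalytic subunit of the phagocyte NADPH oxidase, rose from 3.37 and 2.28 to 30.6 and 37.8 CPM (3.60, SE 0.20). That the groups do not overlap was part of the rule that chose these genes, and the replicates were close. Angptl2, a secreted angiopoietin-like protein, rose from 6.84 and 6.4 to 52.6 and 63.1 CPM (3.13, SE 0.23, adjusted p = 1.59e-05). Ptpn13, a tyrosine phosphatase, rose from 8.12 and 10.4 to 61.8 and 63.7 CPM (2.76, SE 0.16), and Synpo, which encodes the actin-associated protein synaptopodin, from 2.75 and 3.7 to 29.1 and 31.8 CPM (3.24, SE 0.16). Slc7a10, which transports small neutral amino acids (3.81, SE 0.36), the oxidase activator Noxa1 (3.76, SE 0.37), the ubiquitin ligase component Asb2 (2.77, SE 0.24) and the adhesion molecule Alcam (2.66, SE 0.27) moved the same way from lower levels. These 9 genes, the set of 12 without Csf1r, Hmox1 and Vcam1 described further below, were called whichever library was left out, with adjusted p values from 2.1e-07 to 7.81e-05 in the full fit.

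The 12 largest falls included Dntt and Kit, genes of early thymocytes and precursors. Dntt, the terminal transferase that adds bases to antigen receptor junctions, stood at 30.7 and 36.2 CPM in de novo and 1.33 and 1.66 CPM in splenic Tregs (−4.47, SE 0.38, adjusted p = 2.72e-05). Kit, the stem cell factor receptor, fell from 90.5 and 76.3 to 4.86 and 6.32 CPM (−3.90, SE 0.31, adjusted p = 1.82e-05), and Serpine2, a secreted protease inhibitor, from 26.8 and 30.7 to 1.87 and 2.03 CPM (−3.88, SE 0.20). For all 12 genes of this set the groups are apart by the rule that chose them. Adgrg1, the adhesion receptor GPR56, fell from 88.6 and 94.9 to 7.47 and 12.8 CPM (−3.18, SE 0.22, adjusted p = 1.04e-05). Scin, an actin-severing protein (−3.38, SE 0.27), Plaur, the urokinase receptor (−3.26, SE 0.37), Cacnb3, a calcium channel subunit (−3.20, SE 0.57), Cybrd1, an iron reductase (−3.14, SE 0.35), and Arpp21 (−3.43, SE 0.41) fell too, as did Spats2, Sptbn4 and Pyroxd2. All 12 were called whichever library was left out.

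**Figure D2:**
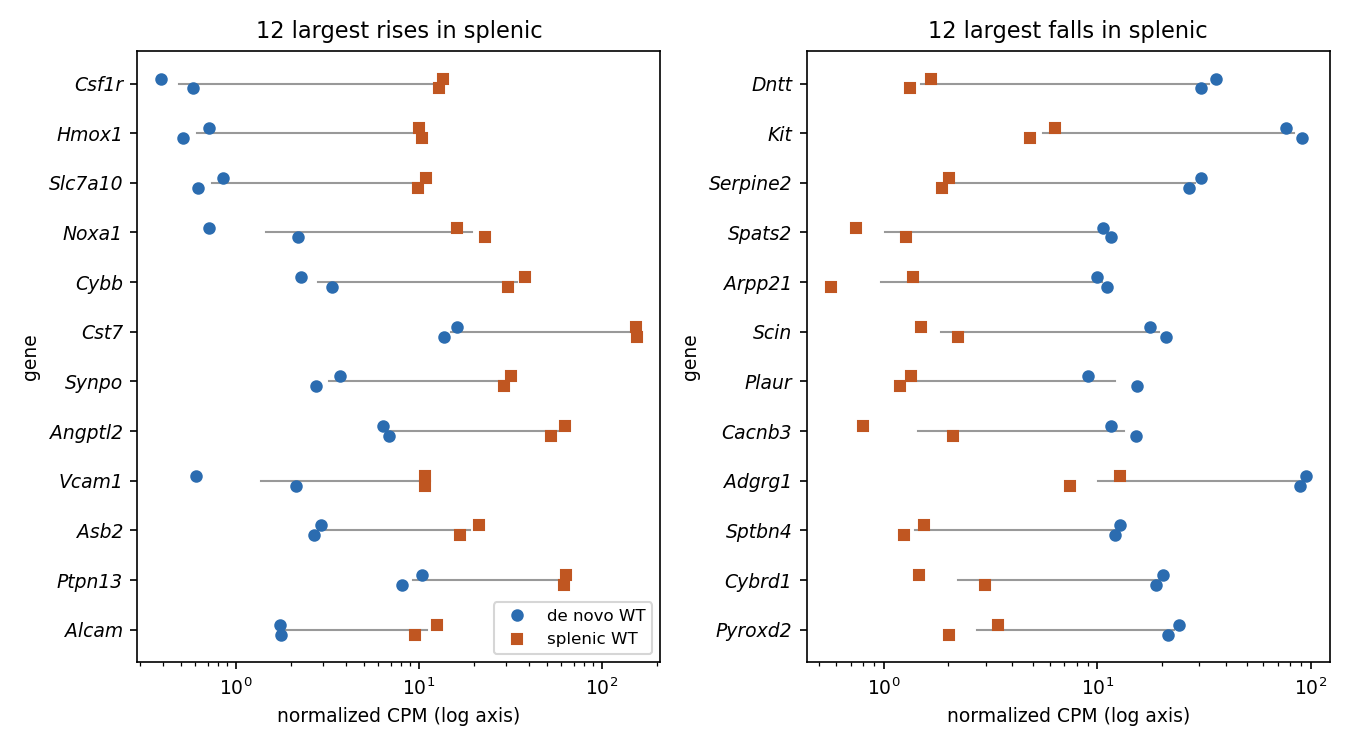
Normalized CPM (log axis) of the 12 genes with the largest rise and the 12 with the largest fall among called genes of at least 10 CPM, with each of the 2 de novo (blue circles) and 2 splenic (orange squares) wild-type libraries as a point and a grey line joining the group means. For every gene shown the 2 groups are apart, by the rule that chose it.

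Genes of immature thymocytes were lower in splenic Tregs as a group: 19 of the 28 members fell, 3 rose and 6 did not pass, with a median log2 fold change of −0.93, also with genes at 0 counts set to their bounds. Rag1 and Rag2 encode the recombinase that assembles antigen receptor genes. Rag1 had 56 and 61 counts in the de novo libraries and 0 in both splenic libraries, at least 24.1-fold lower against the floor of 3 counts per library. Rag2 had 25 and 40 counts against 0 and 0, at least 13.4-fold lower. Ptcra, the pre-T cell receptor alpha chain, chosen like Sox4, Satb1, Itm2a, Tox2 and Cd8a after its values were seen, had 67 and 87 against 0 and 0, at least 31.7-fold lower. All 3 genes were therefore read in both thymic and in no splenic library, though at levels of only 0.915 to 3.09 CPM in the thymic cells.

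Other thymocyte genes fell from higher levels. The transcription factor gene Sox4 stood at 108 and 94.9 against 22.1 and 27.2 CPM (−2.04, SE 0.12, adjusted p = 4.68e-06). Satb1, a chromatin organizer of thymocytes, stood at 1024 and 853 against 407 and 384 CPM (−1.25, SE 0.10), and Itm2a, induced during positive selection, at 714 and 578 against 219 and 227 CPM (−1.53, SE 0.12). The splenic and de novo ranges were apart for each. Ccr9, the thymus and gut homing receptor, fell from 58.1 and 55.3 to 21.7 and 15.5 CPM (−1.61, SE 0.23, adjusted p = 0.000702) and Aqp11 from 5.96 and 5.55 to 0.89 and 1.2 CPM (−2.46, SE 0.42). Cd24a, the heat stable antigen lost as thymocytes mature, stood at 18.3 and 14 against 1.81 and 3.8 CPM (−2.52, SE 0.65, adjusted p = 0.018). Cd24a was not called without de novo replicate 1 (adjusted p = 0.0911), splenic replicate 1 (0.132) or splenic replicate 2 (0.0504), nor by DESeq2 (0.135). The 3 members that rose were Tox2, a nuclear factor of the TOX family (8.34 and 6.76 to 34.4 and 48 CPM; 2.45, SE 0.18), the chemokine receptor gene Ccr4 and Zbtb7b, the CD4 lineage factor.

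Effector Treg genes moved the other way. Of 35 tested, 22 rose, 5 fell and 8 were not called, with a median log2 fold change of 0.78. Klrg1, a receptor of terminally differentiated Tregs, stood at 5.23 and 9.42 CPM in de novo and 45.3 and 45 CPM in splenic Tregs (2.62, SE 0.23, adjusted p = 3.51e-05). Cxcr3, the receptor that guides T cells to type 1 inflammation, rose from 18.2 and 19.7 to 110.5 and 123 CPM (2.62, SE 0.25), and Maf, a transcription factor of IL-10-producing Tregs, from 5.38 and 6.12 to 31.3 and 32.9 CPM (2.48, SE 0.20). In each case the lowest splenic library was several times the highest de novo library. The transcription factors of the effector program rose less: Irf4 from 38 and 36.5 to 65.7 and 69 CPM (0.85, SE 0.12), Prdm1, which encodes Blimp-1, from 7.72 and 10.03 to 16.1 and 19 CPM (0.98, SE 0.19), and Batf from 97.5 and 109 to 167 and 175 CPM (0.73, SE 0.11). These 3 were chosen after their values were seen. The 5 that fell were the type 2 factor Gata3 (300.2 and 306 to 180.2 and 185 CPM; −0.73, SE 0.08, adjusted p = 0.000171), Rora, the chemokine receptor genes Ccr6 and Ccr8, and Tnfrsf9. Effector Treg genes that rose numbered 12 in the 13-library fit, and those that fell numbered 2 in the 13-library fit and 3 without any 1 wild-type library.

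Suppressive mediators followed in part. Of 17 tested, 9 rose and 2 fell, with a median of 0.54. Il10, the interleukin chosen here after its values were seen, was low in both tissues, at 0.549 and 0.142 CPM in de novo and 2.94 and 2.49 CPM in splenic Tregs (2.96, SE 0.48, adjusted p = 0.00137). Gzmb, the cytotoxic protease granzyme B, stood at 3.84 and 3.66 against 11.1 and 13.3 CPM (1.70, SE 0.20, adjusted p = 0.000229). Tigit, an inhibitory receptor, rose from 13.7 and 16 to 40.3 and 44.1 CPM (1.51, SE 0.18), Ebi3, a subunit of IL-35, from 16.4 and 16.8 to 36.8 and 38 CPM (1.17, SE 0.12), and the galectin gene Lgals1 from 149 and 162 to 301 and 287 CPM (0.92, SE 0.09). Every splenic value lay above every de novo value for these genes. Ctla4, the checkpoint receptor that strips ligands from antigen-presenting cells, fell from 482 and 447 to 318 and 262 CPM (−0.68, SE 0.09, adjusted p = 0.000602), and Tgfb1 fell as well. Treg suppressive mediators that rose numbered 4 in the 13-library fit, and those that fell numbered 1 without de novo replicate 1 or splenic replicate 2 and in the 13-library fit. Of 14 checkpoint and CD28 family genes 6 rose and 2 fell, among them Cd160 (0.85, SE 0.14) and Vsir (0.62, SE 0.10). Checkpoint and CD28 family genes that rose numbered 3 in the 13-library fit, and those that fell numbered 1 in the 13-library fit.

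Lineage factors of helper T cells split. Tbx21, which encodes the type 1 factor T-bet, rose from 4.83 and 6.33 to 18.6 and 21.4 CPM (1.84, SE 0.19, adjusted p = 9.3e-05), and Cxcr5, the B cell follicle receptor, from 19.2 and 21.6 to 75 and 80.8 CPM (1.93, SE 0.11). Rora, an orphan nuclear receptor gene, fell from 69.8 and 67.7 to 48.2 and 50.3 CPM (−0.48, SE 0.13, adjusted p = 0.024), a call lost in each fit without 1 wild-type library (adjusted p from 0.0825 to 0.14). Of 17 genes on this list 5 rose and 4 fell. Helper T lineage genes that fell numbered 1 without splenic replicate 1 and 2 without de novo replicate 1 or splenic replicate 2.

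The Treg core signature, the genes that set Tregs apart from other CD4 T cells, had members on both sides: 7 of 31 rose, 11 fell and 13 were not called, with a median of −0.16. Foxp3 is described above. Ikzf2, which encodes Helios, was not called (182 and 203 against 241 and 228 CPM; 0.28, SE 0.12, adjusted p = 0.108) in the full fit. It was called without knockout splenic replicate 1 (adjusted p = 0.0376) or 2 (0.0372), and in the 4 wild-type libraries alone (0.0149). Il2ra, the high-affinity chain of the IL-2 receptor, stood at 978 and 996 against 701 and 658 CPM (−0.54, SE 0.16, adjusted p = 0.0295). Its call was lost without any 1 of the 4 wild-type libraries. The groups did not overlap, which held for 68.7% of all genes and says little alone. Besides Cst7 and Gzmb, the members that rose included Nrp1, a receptor of thymus-derived Tregs (241 and 298 to 403 and 387 CPM; 0.55, SE 0.11, adjusted p = 0.00439, and 0.0552 without de novo replicate 1), and the adenosine-generating enzyme genes Entpd1 (0.90, SE 0.19) and Nt5e (0.68, SE 0.08), chosen after their values were seen. The largest falls on the list were in Arhgap20 (139.7 and 151 to 29.2 and 26.9 CPM; −2.38, SE 0.20) and Dusp4, a phosphatase that dampens MAP kinases (158 and 133 to 46.4 and 50.9 CPM; −1.58, SE 0.18). Core signature genes that rose numbered 2 in the 13-library fit, and those that fell numbered 5 in the 13-library fit.

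Receptors of the TNF superfamily that costimulate developing Tregs fell from high levels. Tnfrsf4, which encodes OX40, stood at 2295 and 2504 CPM in de novo and 1052 and 1011 CPM in splenic Tregs (−1.22, SE 0.07, adjusted p = 4.79e-06). Tnfrsf18, which encodes GITR, stood at 1549 and 1730.0 against 785 and 749.7 CPM (−1.09, SE 0.10, adjusted p = 4.21e-05). The death receptor gene Fas fell from 167 and 174 to 86.5 and 77.6 CPM (−1.06, SE 0.10). Both splenic libraries lay well below both thymic libraries for these receptors. Tnfrsf8, which encodes CD30, went the other way, from 7.91 and 7.5 to 27.1 and 27.3 CPM (1.82, SE 0.16, adjusted p = 3.31e-05). Of 16 receptors tested 3 rose and 5 fell. TNF receptor genes that fell numbered 2 in the 13-library fit.

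Signalling from the IL-2 receptor runs through STAT5, and both STAT5 genes fell. Stat5a stood at 514 and 532 against 208 and 215 CPM (−1.31, SE 0.09, adjusted p = 1.04e-05) and Stat5b, chosen after its values were seen, at 624 and 664 against 421 and 435 CPM (−0.59, SE 0.08). Stat3 fell from 741 and 765 to 491 and 501 CPM (−0.60, SE 0.07) and Stat2 from 219 and 217 to 137 and 118 CPM (−0.78, SE 0.09). The feedback inhibitor genes Socs3 (53.8 and 65.5 to 127 and 118 CPM; 1.04, SE 0.11) and Socs2 (0.55, SE 0.12) and the kinase gene Pim1 (1.01, SE 0.15) rose. Socs2 was not called without de novo replicate 1 (adjusted p = 0.0911) or splenic replicate 1 (0.0629). Of 22 SOCS and JAK-STAT genes 5 rose and 8 fell, and among 21 genes responding to IL-2 and STAT5, 3 were higher and 7 lower; these lists share members. IL-2 and STAT5 response genes that fell numbered 3 in the 13-library fit and 4 without any 1 wild-type library. SOCS and JAK-STAT genes that rose numbered 2 without de novo replicate 1 or splenic replicate 1 and in the 13-library fit and 3 without de novo replicate 2 or splenic replicate 2.

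Several genes that take T cells out of the thymus and into lymphoid organs were higher in the thymic cells. Ccr7, the receptor for lymph node chemokines, stood at 1874 and 1824 CPM in de novo and 762 and 714 CPM in splenic Tregs (−1.33, SE 0.07, adjusted p = 2.13e-06). The transcription factor gene Klf2, which drives the egress receptor, stood at 876 and 765 against 504 and 449 CPM (−0.78, SE 0.10), and S1pr1, the egress receptor itself, at 768 and 749 against 551 and 538 CPM (−0.48, SE 0.09, adjusted p = 0.00328). Cd69, which holds S1pr1 inside the cell, fell too (312 and 229 to 174 and 135 CPM; −0.81, SE 0.15). These 4 genes had both splenic libraries below both thymic ones. Of 20 egress and homing genes 8 fell and 5 rose, the largest rise being Ly6c1 (24.1 and 23.7 to 152 and 125 CPM; 2.53, SE 0.19, adjusted p = 1.52e-05), followed by Dapl1 (1.61, SE 0.26) and Itga4, the alpha 4 integrin (1.00, SE 0.10). Egress and homing genes that rose numbered 2 in the 13-library fit, and those that fell numbered 2 in the 13-library fit.

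Chemokine receptors showed a change of set. Of 20 tested, 6 rose, among them Ccr4, Ccr10, Cxcr3, Cxcr5 and Gpr15, and 5 fell (Ccr6, Ccr7, Ccr8, Ccr9 and Cx3cr1), with a median of 0.34. Ccr4, a receptor for skin and inflamed tissue, stood at 9.59 and 10.8 against 34.3 and 32.8 CPM (1.72, SE 0.30, adjusted p = 0.0024). Ccr10, another skin receptor, chosen after its values were seen, was low at 0.183 and 0.107 against 3.59 and 2.97 CPM (4.47, SE 0.60, adjusted p = 0.000469). Gpr15, a gut homing receptor, stood at 6.55 and 5.08 against 11.9 and 11.8 CPM (1.02, SE 0.24, adjusted p = 0.0105), a call lost without de novo replicate 2 (adjusted p = 0.0797), splenic replicate 1 (0.0562) or splenic replicate 2 (0.062). Ccr6, a receptor of activated Tregs, fell from 161 and 182 to 96.3 and 92.1 CPM (−0.87, SE 0.14, adjusted p = 0.00133).

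Genes reported for Tregs that travel back to the thymus gave no common direction in wild type. Of 9 tested, 4 rose (Klrg1, Cxcr3, Nt5e and Il1rl1), 2 fell (Ccr6 and Il1r2) and 3 were not called (Cxcr4, Cd44 and Itgae). Itgae, the CD103 integrin chain, stood at 92 and 99.6 against 94.9 and 74 CPM (−0.18, SE 0.19, adjusted p = 0.532), with overlapping groups. Il1rl1, the IL-33 receptor, stood at 8.09 and 12.3 against 17 and 16.5 CPM (0.72, SE 0.21, adjusted p = 0.0279), with 0.45 and adjusted p = 0.201 without de novo replicate 1, and adjusted p = 0.117 and 0.107 without splenic replicates 1 and 2. Thymus re-entry genes that rose numbered 2 in the 13-library fit, and those that fell numbered 0 in the 13-library fit and 1 without de novo replicate 1, splenic replicate 1 or splenic replicate 2.

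Several integrin and S100 family genes, which serve adhesion and migration, were among those that rose. Itgb1, the beta 1 integrin chain, rose from 194 and 179 to 399 and 432 CPM (1.15, SE 0.12, adjusted p = 8.33e-05) and its partner Itga4 from 61.2 and 69.2 to 126 and 136 CPM (adjusted p = 5.86e-05). Of 17 integrin genes 7 rose and 2 fell. Integrin genes that rose numbered 2 in the 13-library fit, 3 without splenic replicate 1 and 4 without de novo replicate 1, de novo replicate 2 or splenic replicate 2, and those that fell numbered 1 without any 1 wild-type library and in the 13-library fit. The small calcium-binding protein S100a6 rose from 13.8 and 14.9 to 61.6 and 62.8 CPM (2.12, SE 0.15, adjusted p = 1.41e-05), S100a4 from 4.72 and 4.55 to 13.9 and 14.6 CPM (1.62, SE 0.29) and S100a11 from 19.7 and 21.6 to 58.3 and 57.5 CPM (1.49, SE 0.18). Both splenic libraries lay well above both de novo libraries for these 3 genes. Of 24 genes on a list of S100, annexin and galectin genes with Ahnak, Vim, Lmna, Crip1 and Emp3, 10 rose and 4 fell. S100, annexin and galectin genes that rose numbered 5 in the 13-library fit and 6 without de novo replicate 1, and those that fell numbered 0 in the 13-library fit, 1 without de novo replicate 2 or splenic replicate 2 and 2 without either knockout de novo library or de novo replicate 1.

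Early response genes of the T cell receptor were more often lower than higher in splenic Tregs: 10 of 25 fell and 3 rose, with a median of −0.20. Nr4a1, the orphan receptor Nur77 whose level tracks receptor signal strength, stood at 614 and 426 CPM in de novo and 216 and 232 CPM in splenic Tregs (−1.22, SE 0.15, adjusted p = 0.000289). The MAP kinase phosphatase gene Dusp5 fell from 342 and 238 to 105 and 95.9 CPM (−1.53, SE 0.15, adjusted p = 5.86e-05), while Nfatc1, a calcium-driven factor, rose from 226 and 199 to 424 and 434 CPM (1.01, SE 0.09). Groups were apart for all 3. Early TCR response genes that fell numbered 3 in the 13-library fit, 4 without splenic replicate 1 and 5 without de novo replicate 1 or splenic replicate 2.

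AP-1 and other genes that cell preparation can induce varied between replicates. Of 18 tested 6 fell and 0 rose by edgeR (1 at an unadjusted p under 0.05), 1 rose by DESeq2 and by limma-voom, and the median was −0.41. Fos, an AP-1 subunit, stood at 187 and 24.2 CPM in the de novo libraries and 25.6 and 10.3 CPM in the splenic ones, so that de novo replicate 1 alone was high and the other thymic library lay between the splenic libraries. Its log2 fold change of −2.56 (SE 0.78, adjusted p = 0.0365) became −0.43 (adjusted p = 0.678) without that library, and its call was also lost without splenic replicate 1 (0.0694) or 2 (0.218). Dusp1 stood at 648 and 283 against 169 and 109 CPM (−1.74, SE 0.31, and −1.02 without de novo replicate 1). Jun stood at 193 and 182 against 69.3 and 41.8 CPM (−1.76, SE 0.33, adjusted p = 0.00312) and Fosl2 at 8.53 and 8.6 against 1.6 and 2.4 CPM (−2.09, SE 0.31), with replicates closer together. AP-1 and preparation genes that rose numbered 1 without either knockout de novo library or either knockout splenic library, and those that fell numbered 2 in the 13-library fit and 3 without de novo replicate 1, splenic replicate 1 or splenic replicate 2. By limma-voom 3 fell. Of the 10 early response genes that fell, Cd69, Nr4a1 and Dusp5 were also highest in de novo replicate 1, and the part of that library in these falls was not tested beyond leaving it out.

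NF-kB genes fell more often than they rose. Of 30 subunits and regulators 9 fell, 1 rose and 20 were not called, with a median of −0.14. The called share was 33.3%, against 23.6% of all genes. Rel, which encodes c-Rel, stood at 99.6 and 97.1 CPM in de novo and 45.1 and 53.9 CPM in splenic Tregs (−0.99, SE 0.11, adjusted p = 0.000142). Nfkb1, the gene of the partner p50, stood at 157 and 171 against 164 and 169.9 CPM and was not called (0.03, SE 0.10, adjusted p = 0.858). Bcl3, a nuclear cofactor, fell from 197 and 215 to 116 and 113 CPM (−0.85, SE 0.09) and Birc2, a ubiquitin ligase of the pathway, from 203 and 199 to 122 and 119 CPM (−0.74, SE 0.10). The inhibitor gene Nfkbia, itself an NF-kB target and chosen after its values were seen, stood at 1072 and 959 against 685 and 628 CPM (−0.63, SE 0.09). Tnfaip3, the A20 feedback inhibitor, stood at 522 and 266 against 136 and 129 CPM (−1.57, SE 0.23, adjusted p = 0.000854). De novo replicate 1 was again the highest for Tnfaip3, and the change was −1.0 without it. The member that rose was Malt1. NF-kB genes that rose numbered 0 in the 13-library fit, 2 without either knockout de novo library or de novo replicate 2 and 3 without either knockout splenic library.

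Of 25 apoptosis and survival genes 4 rose, 4 fell and 17 were not called, so that 32% were called against 23.6% of all genes. Bcl2l1, the gene of the anti-apoptotic Bcl-xL, fell from 125 and 122 to 76.1 and 85.5 CPM (−0.61, SE 0.10, adjusted p = 0.0018), while Bcl2 stood at 371 and 332 against 369 and 368 CPM (0.07, SE 0.09, adjusted p = 0.637). The death-promoting Bcl2l11, which encodes Bim, rose from 49.4 and 42.9 to 83.5 and 73.3 CPM (0.76, SE 0.11), as did the death ligand gene Fasl (1.60, SE 0.32). Survival and apoptosis genes that fell numbered 2 without any 1 wild-type library and in the 13-library fit.

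Interferon-stimulated genes, which interferon switches on as antiviral effectors and sensors, were lower in splenic Tregs: 30 of the 52 members tested fell, 5 rose and 17 did not pass, with a median of −0.47. Ifit1, an RNA-binding antiviral protein, stood at 250.1 and 278 CPM in de novo and 108 and 65.2 CPM in splenic Tregs (−1.60, SE 0.18, adjusted p = 0.000181). Ifit3, its partner, stood at 95.8 and 117 against 45 and 21.4 CPM (−1.68, SE 0.25, adjusted p = 0.000972), and Isg15, a ubiquitin-like modifier, at 74.8 and 84.9 against 44.8 and 32.8 CPM (−1.04, SE 0.15). Thymic libraries were above splenic libraries for these genes, and splenic replicate 2 was the lowest library each time. The largest fall was in Ifi44 (7.39 and 10.9 to 1.01 and 1.03 CPM; −3.16, SE 0.28, adjusted p = 3.41e-05), and Oasl2, of the oligoadenylate synthetase family, fell from 73.8 and 74.5 to 23.4 and 16.5 CPM (−1.90, SE 0.15). Irf7, a factor that amplifies interferon responses, fell from 463 and 524 to 221 and 173 CPM (−1.32, SE 0.13, adjusted p = 6.06e-05). The 5 that rose were Gbp2, Gbp3, Ly6a, Ly6e and Parp14; Gbp2 was not called without de novo replicate 2 (adjusted p = 0.0623) or splenic replicate 1 (0.0739). Ly6a, the surface protein Sca-1, rose from 52.9 and 59.95 to 258 and 207 CPM (2.04, SE 0.20), and the guanylate-binding protein gene Gbp3 from 60.2 and 70.8 to 133 and 124 CPM (0.97, SE 0.12, adjusted p = 0.000359). Ifit1, Ifit3b, Isg15, Irf7 and Gbp3 were chosen after their values were seen, and Ifit3 and Ifit3b are close copies whose reads may be split. Interferon-stimulated genes that rose numbered 3 without de novo replicate 2 or splenic replicate 1 and in the 13-library fit, and those that fell numbered 18 in the 13-library fit and 19 without splenic replicate 2.

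Promoter sequences of these genes were read to see what letters the falling and rising members share. Interferon acts through the interferon-stimulated response element (ISRE), searched here on both strands as GAAA, any 2 bases, then GAAA, in the 250 bases before each RefSeq start (build GRCm38.p6); the choice of this element followed the result. The element was found in 11 of 22 promoters of interferon-stimulated genes that fell (50%), in 9 of 15 that rose or were not called (60%), and in 3.28% of the 9559 promoters of tested genes that were matched. The following stretches, shown for falling members and for 1 rising member, have the matches in capitals, overlapping ones joined, and read 5′ to 3′ along the gene's strand.
Ifit1 (chr19:34640760-34640838, plus strand): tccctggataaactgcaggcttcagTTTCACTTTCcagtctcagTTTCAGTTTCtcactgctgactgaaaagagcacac
Ifit3 (chr19:34583348-34583441, plus strand): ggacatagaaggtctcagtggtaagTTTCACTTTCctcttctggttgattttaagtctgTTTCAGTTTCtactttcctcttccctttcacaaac
Isg15 (chr4:156200850-156200921, minus strand): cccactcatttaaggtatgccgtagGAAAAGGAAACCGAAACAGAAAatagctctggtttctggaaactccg
Gbp3 (chr3:142559974-142560039, plus strand): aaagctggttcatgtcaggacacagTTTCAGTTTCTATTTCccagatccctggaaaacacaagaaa
The matches of Ifit1, Ifit3 and Isg15 and those of Gbp3 are of the same kind, although the first 3 genes were lower and Gbp3 was higher in splenic Tregs. A match is a description of letters and does not show that a factor binds. Among the promoters of genes at least 2-fold lower the element was in 6.49%, and among those at least 2-fold higher in 3.15%. The NF-kB motif was in 7.47% and 9.71% of these, against 5.53% of all. The CACCC box, written CCACCC, was in 50% and 40.9%, against 37.1% of all.

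**Figure D3:**
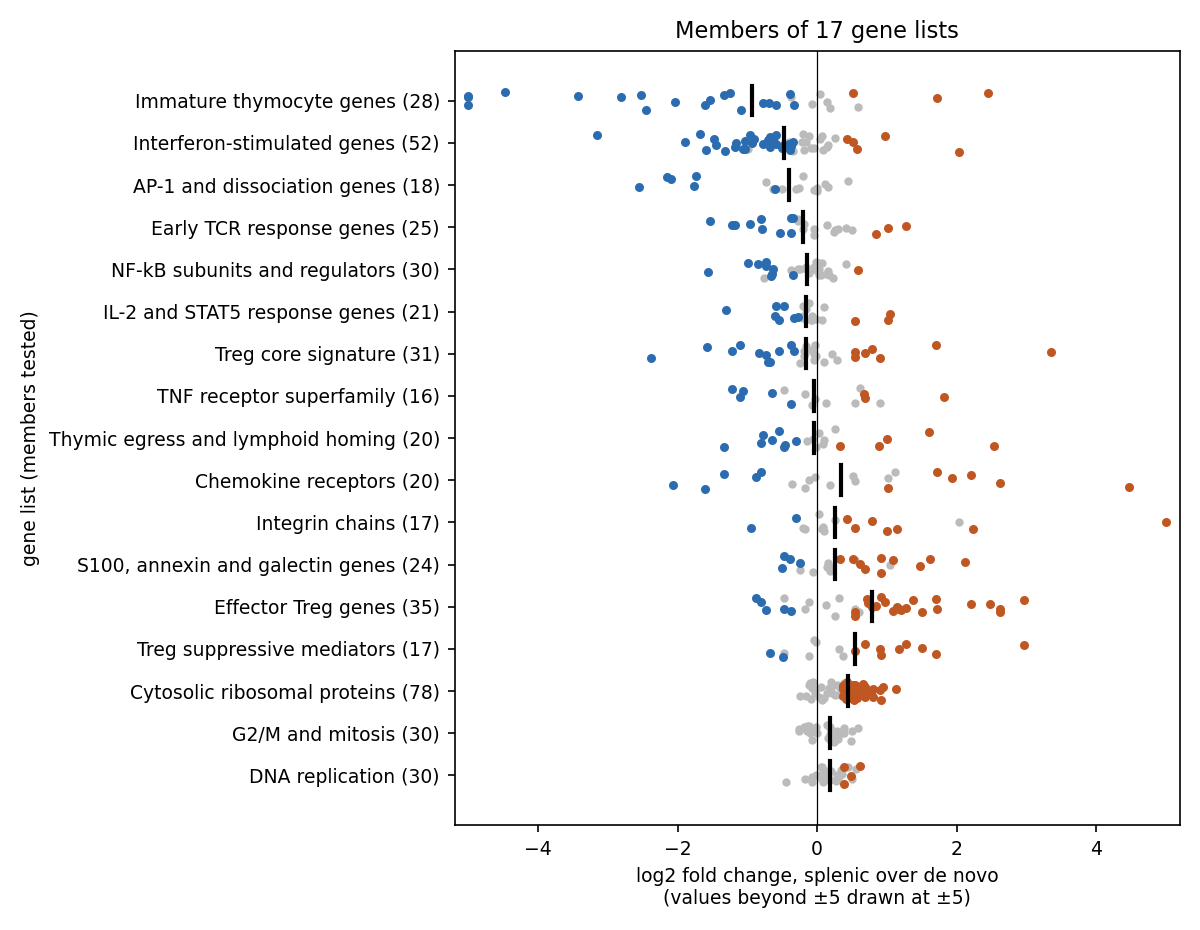
Log2 fold changes (splenic over de novo, wild type) of the tested members of 17 gene lists, with members called higher in orange, called lower in blue and not called in grey, and the black bar at the list median; numbers after the names are the members tested. Thymocyte and interferon-stimulated genes lie mostly below 0, and effector Treg and ribosomal protein genes mostly above it.

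Many cytosolic ribosomal protein genes rose by small amounts. Of 78 tested, 49 rose, 29 were not called, 0 fell by edgeR (0 at an unadjusted p under 0.05), DESeq2 or limma-voom, and the median was 0.44. Rpsa, which also serves as a laminin receptor, stood at 105 and 106 CPM in de novo and 234 and 227 CPM in splenic Tregs (1.13, SE 0.08, adjusted p = 1.5e-05), and Rplp2 at 47.4 and 44.8 against 84.6 and 87.4 CPM (0.90, SE 0.10, adjusted p = 0.000178). The summed share of counts on these genes was 0.921% and 0.935% in de novo and 1.36% and 1.32% in splenic libraries, and how far RNA quality or library preparation enters was not tested. Ribosomal protein genes that rose numbered 6 in the 13-library fit, 27 without de novo replicate 1 and 30 without splenic replicate 1. Pseudogene copies can take part of the reads of these genes. Of 11 mitochondrially encoded genes 3 rose (27.3%, against 23.6% of all genes called in either direction). Mitochondrially encoded genes that rose numbered 0 without de novo replicate 1 or splenic replicate 2 and in the 13-library fit and 1 without splenic replicate 1, and those that fell numbered 1 without splenic replicate 2.

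Few proliferation genes were called between wild-type splenic and thymic Tregs when wild-type and knockout libraries were fitted together. Of 30 genes of the G2 phase and mitosis 0 were called by edgeR (5 higher and 0 lower at an unadjusted p under 0.05) and by limma-voom and 1 was higher by DESeq2, with a median of 0.18. Mki67, the proliferation marker, stood at 65.9 and 64.1 against 79.2 and 90.2 CPM (0.38, SE 0.16, adjusted p = 0.103). Of 30 DNA replication genes 4 rose (Cdt1, Tyms, Tk1 and Dut) and 0 fell by edgeR (0 at an unadjusted p under 0.05), DESeq2 or limma-voom, for example Tk1 from 30.5 and 27.5 to 45.2 and 43.5 CPM (0.61, SE 0.13, adjusted p = 0.0055, and 0.0529 without de novo replicate 2). In the fit of the 4 wild-type libraries alone 4 mitotic and 7 replication genes rose, and with no filter 4 mitotic genes. Mitotic genes that rose numbered 4 without knockout splenic replicate 1 and 5 without knockout splenic replicate 2. Replication genes that rose numbered 0 without de novo replicate 2 and in the 13-library fit, 1 without de novo replicate 1 or splenic replicate 2, 2 without splenic replicate 1 and 8 without either knockout splenic library. Cell cycle brakes fell in part: the inhibitor genes Cdkn1b (−0.60, SE 0.15) and Cdkn2d (−0.58, SE 0.10) and the retinoblastoma gene Rb1 (104 and 92.5 to 45 and 44.1 CPM; −1.14, SE 0.21, adjusted p = 0.00294) were lower, while Cdkn2c was higher (0.80, SE 0.13). The call of Cdkn1b was lost without any 1 of the 4 wild-type libraries (adjusted p from 0.0603 to 0.0919). Of 18 genes on this list 2 rose and 5 fell. Genes of G1 cyclins and inhibitors that rose numbered 1 without any 1 wild-type library and in the 13-library fit, and those that fell numbered 1 in the 13-library fit and 3 without de novo replicate 1, splenic replicate 1 or splenic replicate 2.

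Glycolysis had 2 of 22 genes higher and 3 lower, a called share of 22.7%, close to the 23.6% of all genes. The largest change was in the lactate exporter gene Slc16a3 (59.7 and 51 to 27.5 and 29.8 CPM, −0.95, SE 0.12, adjusted p = 0.000274 by edgeR). Glycolysis genes that rose numbered 0 without de novo replicate 1 and in the 13-library fit, 1 without splenic replicate 1 or splenic replicate 2 and 5 without either knockout splenic library, and those that fell numbered 0 in the 13-library fit and 1 without de novo replicate 2 or splenic replicate 2. Genes of MHC class I presentation split into 3 higher and 3 lower of 16, with H2-Q6 from 273 and 374 to 869 and 807 CPM (1.37, SE 0.13) and H2-T24 from 83.3 and 86.3 to 42.9 and 43.4 CPM (−0.97, SE 0.09). Class I genes that rose numbered 1 in the 13-library fit and 5 without either knockout splenic library, and those that fell numbered 1 in the 13-library fit and 6 without either knockout splenic library. Class I genes of the Q and T regions resemble one another, so reads shared among them leave the level of each uncertain.

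The NADPH oxidase, which makes superoxide, changed subunit by subunit. Cybb rose as given above, and Ncf4, a cytosolic subunit, rose from 80.6 and 94.4 to 174 and 173 CPM (0.99, SE 0.11, adjusted p = 0.00016). Ncf1, the organizing subunit, fell from 99.6 and 105 to 22.2 and 24.3 CPM (−2.13, SE 0.15, adjusted p = 9.85e-06), and Noxa1, an activator outside this list, rose from 2.2 and 0.711 to 23 and 16.2 CPM. Of 6 subunits 3 rose and 1 fell, and these 4 calls held in every fit without 1 library.

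Csf1r, Hmox1 and Vcam1, which macrophages express, rose in splenic Tregs from very low levels. On the myeloid list 6 of 17 markers tested rose and 10 were not called. Csf1r, the receptor that macrophages need to survive, stood at 0.586 and 0.391 CPM in de novo and 12.9 and 13.6 CPM in splenic Tregs, the largest rise among genes of at least 10 CPM (4.75, SE 1.13, adjusted p = 0.0118). Hmox1, which encodes haem oxygenase and is high in red pulp macrophages, stood at 0.512 and 0.711 against 10.4 and 10.01 CPM (4.05, SE 0.36, adjusted p = 3.96e-05), and the adhesion molecule gene Vcam1 at 2.12 and 0.604 against 10.8 and 10.8 CPM (2.98, SE 0.52; adjusted p = 0.206 in the 13-library fit). By the rule that chose them, both splenic libraries lay above both thymic libraries for these 3 genes. Of 17 myeloid and dendritic markers tested 6 rose (Csf1r, Itgax, Cd14, Fcer1g, Flt3 and Mpo), 1 fell (Zbtb46) and 10 were not called, with a median of 1.57, also with genes at 0 counts set to their bounds. The called share was 41.2%, against 23.6% of all genes, and 13 markers lay above 0 and 4 below. Itgax had 0 counts in both de novo libraries and was at least 8.7-fold higher in splenic ones, and Cd14 at least 5.24-fold. Summed over all 20 markers the level was 172 and 171 CPM in de novo and 194 and 239 CPM in splenic Tregs, of which Cst3 alone took between 135 and 146 CPM. Lyz2, the most abundant macrophage marker besides it, stood at 8.42 and 3.45 against 18.4 and 45.3 CPM and was not called. The macrophage markers Adgre1 (0.549 and 0.462 against 1.9 and 1.69 CPM), Cd68 (1.87 and 2.6 against 3.47 and 3.86 CPM) and Tyrobp (3.37 and 0.711 against 4.83 and 7.24 CPM) were not called either. Each of these markers was nonetheless higher in both splenic libraries. The part of such cells in other differences was not tested.

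These calls rest on few libraries. Myeloid markers that rose numbered 0 without de novo replicate 1, de novo replicate 2 or splenic replicate 2 and 2 without splenic replicate 1 and in the 13-library fit, and those that fell numbered 0 without de novo replicate 2 or splenic replicate 1 and in the 13-library fit. With a filter of 1 CPM in 2 libraries 3 rose. Csf1r was not called by DESeq2 (adjusted p = 0.0873), in the 13-library fit (0.101), or without de novo replicate 1 (0.0721), de novo replicate 2 (0.0826) or splenic replicate 2 (0.0519). Cybb, which macrophages also express, stood at 34.3 and 34.8 CPM in knockout splenic Tregs and Csf1r at 4.19 and 0 CPM. The part of macrophage RNA in the rise of Cybb was not tested.

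**Figure D4:**
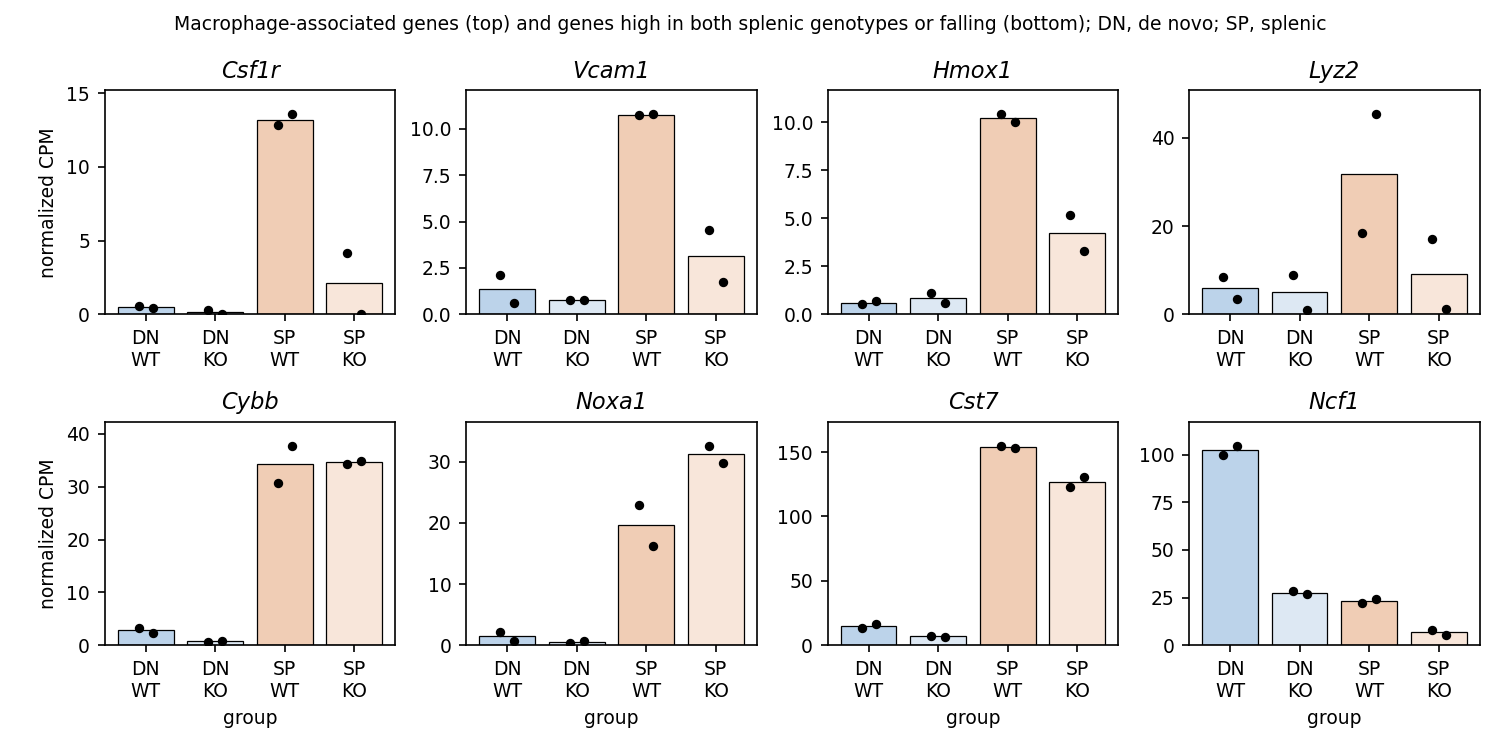
Normalized CPM of 8 genes in the 4 groups of 2 libraries (points, single libraries; bars, means; WT, wild type; KO, c-Rel knockout). Csf1r, Vcam1, Hmox1 and Lyz2 had higher means in wild-type than in knockout spleen libraries, a difference that was not tested. For Lyz2 the wild-type spleen libraries stood at 18.4 and 45.3 CPM and the knockout ones at 17 and 1.3 CPM, so 1 of each lay close together. Cybb, Noxa1 and Cst7 were high in all 4 splenic libraries and Ncf1 was lower in them than in the thymic libraries of the same genotype.

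Most markers of other cells were low or did not move together, but the NK receptor genes were higher in splenic Tregs, at low levels. B and plasma cell markers summed to 39.2 and 35.7 CPM in de novo and 44.5 and 57.5 CPM in splenic Tregs, with 1 of 13 called (Cd79b, 0.91, SE 0.16). Erythroid and platelet markers summed to 108 and 3.8 against 4.39 and 25.1 CPM, so de novo replicate 1 stood apart, and 0 of 7 were called by edgeR (0 at an unadjusted p under 0.05), DESeq2 or limma-voom, while 2 fell with no filter and 1 rose in the fit of the 4 wild-type libraries alone. CD8 T and NK cell markers summed to 1060 and 1170 against 398 and 395 CPM, most of it Ctsw, a granule protease (834 and 950.2 against 209 and 203 CPM; −2.12, SE 0.09, adjusted p = 7.35e-07). Cd8a itself stood at 4.54 and 3.95 against 0.741 and 0.458 CPM (−2.82, SE 0.68, adjusted p = 0.0125), a call lost without de novo replicate 1 (0.0595), splenic replicate 1 (0.0522) or splenic replicate 2 (0.1). Nkg7, another granule gene, stood at 167 and 164 against 138 and 141 CPM. Of 12 such markers 3 rose, all NK receptor genes (Klrd1, Klrb1c and Ncr1), and 2 fell (41.7% called, against 23.6% of all genes). Klrb1c stood at 0.769 and 1.14 against 5.28 and 5 CPM and Ncr1 at 0 and 0.0356 against 1.13 and 1.54 CPM. Klrk1 (0.769 and 0.889 against 2.11 and 3.03 CPM) and Klrc1 (0.183 and 0 against 0.741 and 1.03 CPM) were also higher in both splenic libraries. Of the 12, 6 lay above 0 and 6 below. The part of NK cells was not tested. CD8 and NK markers that rose numbered 5 without either knockout splenic library, and those that fell numbered 1 without de novo replicate 1, splenic replicate 1 or splenic replicate 2, 4 without knockout splenic replicate 1 and 5 without knockout splenic replicate 2. Thymic stroma markers at 0 in all 4 wild-type libraries were Ccl21a, Col3a1, Foxn1, Krt5, Pdgfra and Psmb11. Splenic stroma markers at 0 in all of them were Ccl19, Col3a1, Cxcl12, Dcn, Lyve1, Nkx2-5, Pdpn and Tcf21. Of 6 thymic stroma markers tested 1 rose and 1 fell (33.3% called). Of 5 splenic stroma markers tested 2 rose, Vcam1 and Cd5l, and 1 fell (60% called, against 23.6% of all genes). Cd5l, placed on the splenic stroma list but expressed by macrophages like Vcam1, stood at 0.146 and 0 CPM in de novo and 1.66 and 2.17 CPM in splenic Tregs. In knockout splenic Tregs it stood at 0.453 and 0 CPM.

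Lad1, which encodes the anchoring filament protein ladinin, stood at 27.1 and 32.2 CPM in knockout de novo and 4.25 and 1.54 CPM in knockout splenic Tregs. In wild type it stood at 573 and 595 against 129 and 115 CPM (−2.26, SE 0.22, adjusted p = 6.73e-05). Gimap4, a GTPase of maturing T cells, was not called (1027 and 1034 against 954 and 973 CPM; −0.10, SE 0.10, adjusted p = 0.525).

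The same comparison in mice without c-Rel uses none of the wild-type libraries, although it shares the count tables and the estimate of the spread. There 3589 genes were called (28.6%), 1896 higher in splenic Tregs (15.1%) and 1693 lower (13.5%). Of the genes higher in wild type 1141 were also higher in the knockout, 75.7% of the wild-type and 60.2% of the knockout calls, and of those lower 1010 were lower, 69.5% and 59.7%. Opposite calls were 6 and 9. Cst7 (4.19), Cxcr3 (3.60), Cxcr5 (2.36), Ccr7 (−1.10), Tnfrsf4 (−1.23), Dntt (−4.52), Kit (−3.22), Sox4 (−2.15) and Ifi44 (−3.06) were called in the same direction there, with these log2 fold changes in the knockout. Rag1, Rag2 and Ptcra had 0 counts in both knockout splenic libraries as well.

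The size of the tissue difference itself depended on genotype for 134 genes (1.07%; edgeR interaction test), higher in wild type for 63 (0.503%) and lower for 71 (0.567%). Itgae, not called in wild type, stood at 25.8 and 16.6 CPM in knockout de novo and 168 and 126 CPM in knockout splenic Tregs (2.79; difference of the log2 fold changes, wild type minus knockout, −2.97, SE 0.28, adjusted p = 0.00118). Fgl2, a secreted suppressor, stood at 17.7 and 21.3 against 21.5 and 27 CPM in wild type and 3.13 and 3.86 against 25.2 and 25.8 CPM in the knockout (−2.55, SE 0.24, adjusted p = 0.00118). Klrg1 rose in both, but from 0.522 and 0.681 to 27.6 and 34.8 CPM in the knockout (−3.06, SE 0.41, adjusted p = 0.0083), and Tigit likewise from 3.38 and 1.97 to 31 and 34 CPM (−2.10, SE 0.27). As a ratio, the splenic levels of the genotypes were closer together for these genes than the thymic levels, where the knockout was low. Bcl2l1 fell in wild type and rose in the knockout (0.59, adjusted p = 0.00213; difference −1.20, SE 0.15, adjusted p = 0.0058). Mki67 went from 64.2 and 74.1 to 44.1 and 30.3 CPM in the knockout (−0.89; difference 1.28, SE 0.22, adjusted p = 0.0282).

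By list, effector Treg genes had a median of 1.71 in the knockout, with 25 higher and 3 lower, and 7 of 35 members passed the interaction test. Genes of Tregs that return to the thymus had 8 of 9 higher and 0 lower in the knockout, with 6 passing. The G2 and mitosis list fell by 1.22 in the median in the knockout, with 30 of 30 lower and 14 passing, and 21 of 30 replication genes were lower there with 4 passing. Interferon-stimulated genes had 23 lower and 6 higher in the knockout, and immature thymocyte genes 18 lower and 4 higher. The interaction counts are the least settled of the results: leaving out knockout splenic replicate 1 gave 314 higher and 148 lower in wild type, while any other single library left out gave between 3 and 80 higher and between 18 and 91 lower. In the 13-library fit 0 and 1 were called, and by DESeq2 174 and 136.

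**Figure D5:**
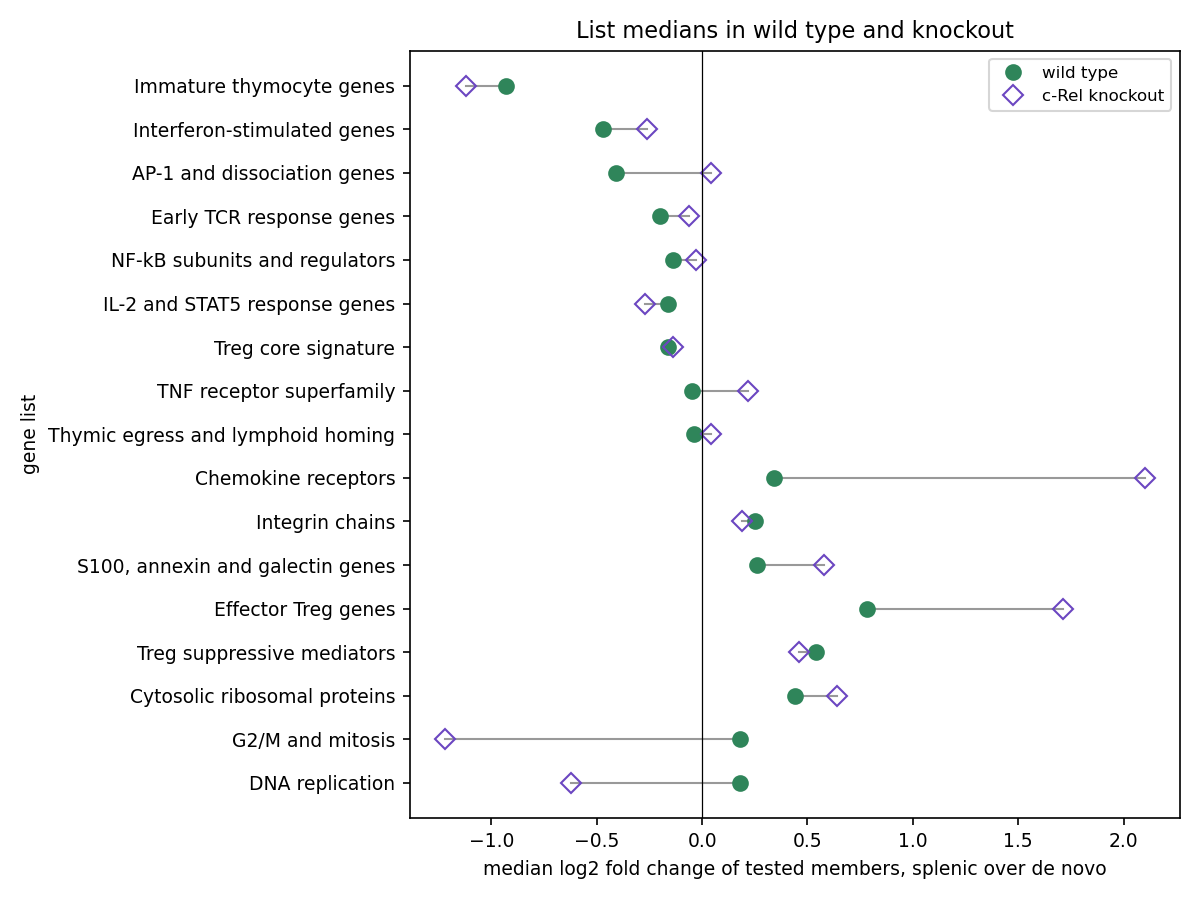
Median log2 fold change (splenic over de novo) of the tested members of the lists named on the axis, in wild type (green circles) and c-Rel knockout (open diamonds), with a grey line between them. Among the lists drawn the gaps are widest for the chemokine receptor, mitosis, effector Treg and replication lists. The thymus re-entry list (0.26 in wild type and 1.23 in knockout) and the lists of other cell types are not drawn.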

How the data were processed

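RNA sequencing counts of wild-type splenic and thymic de novo Tregs were compared, with the matching c-Rel knockout libraries in the same fit. The authors deposited whole-number counts per gene in 1 table per cell population. Per the submitters' processing notes, the tools named are FastQC, MultiQC, STAR 2.5.2, Picard 2.9.0, featureCounts from Subread 1.5.2 and limma, and the build is GRCm38. Neither annotation release nor strandedness is given in the sources used here. The 2 tables list 22048 genes each and were joined on gene ID; 0 per-sample columns were unused. The deposited gene length served only in a check of length.

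Genes were kept by filterByExpr of edgeR 4.0.16 (minimum count 10, minimum total count 15) in R 4.3.3, which left 12532. Libraries were scaled by TMM, and a quasi-likelihood fit over 8 libraries in 4 groups (4 residual degrees of freedom, common biological coefficient of variation 0.114) gave the wild-type contrast, the knockout contrast and their difference, with Benjamini-Hochberg adjustment over all genes. Tested on simulated counts for the wild-type contrast over 12532 genes, it recovered 40% of 1.5-fold, 92% of 2-fold, 94% of 3-fold and 100% of 4-fold changes, with 5.78% of calls false. The simulation gave every gene the same spread and changed 50 genes at each fold, far fewer than were called in the data. These shares therefore need not hold for the data. Fold changes from groups at 0 counts were replaced by bounds against 3 counts per library. Replicates of a group differed by more than counting noise.

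Genes named were the 12 largest rises and falls among called genes of at least 10 CPM without overlap, up to 4 called members of each list, a fixed set, and up to 8 interaction genes; others are marked. Members and lists were chosen with earlier results of these data known. Alternatives were RLE, upper-quartile and library-size scaling, DESeq2 1.42.0, limma-voom (limma 3.58.1), other filters, other sets of libraries, a replicate block, a test against 1.5-fold, a length trend, and each library left out. Same-numbered libraries had correlations of deviations between −0.108 and 0.174. These cannot tell whether libraries share an animal, which the labels do not state, and the main fit modelled no pairing. Pre-Treg libraries entered only the 13-library fit. Some members of the lists are counted but not reported by name here.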

Additional observations from a re-analysis of the deposited data

Results flagged for a closer look

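The tissue difference of 22 genes described above or named by the same rule differed between wild type and c-Rel knockout by the edgeR interaction test (adjusted p under 0.05). Values are the wild-type minus the knockout log2 fold change, splenic over de novo. The integrin chain gene Itgae, at −2.97, and several surface receptor genes had smaller values in wild type. These receptor genes were Klrg1 at −3.06, Tigit at −2.10, Il1rl1 at −2.25, Il9r at −2.38, Gpr15 at −2.34, Tnfrsf8 at −1.52, Ccr6 at −1.12 and Nrp1 at −0.78. Other genes with values below 0 were Fgl2 at −2.55, Ccl5 at −2.21, S100a4 at −2.16, Maf at −2.05 and Cybb at −1.94. Cst7 at −0.82, Ttc39c at −2.60, Bcl2l1 at −1.20 and mt-Nd5 at −0.61 lay on the same side. Values above 0 were found for the proliferation and replication genes Mki67 at 1.28, Tyms at 0.98 and Cdt1 at 0.65, and for the lactate exporter gene Slc16a3 at 0.81. No group has enough libraries for a check of single outlying samples.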

How the results depend on the processing

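No gene called in the wild-type comparison was called the other way in any alternative, but the balance of counts could turn. With a test against 1.5-fold 336 genes were higher and 301 lower, 310 of the higher ones at least 2-fold, and over 13 libraries 457 were higher, 292 of them at least 2-fold, and 516 lower, against 1508 and 1453 in the fit of 8 libraries. Leaving out 1 library gave between 713 and 1978 higher and between 637 and 1995 lower, and between 336 and 570 higher by at least 2-fold. Interaction counts above and below, 63 and 71 in the fit of 8 libraries, were 174 and 136 by DESeq2, 207 and 174 with no filter and 0 and 1 over 13 libraries, and between 3 and 314 above and between 18 and 148 below with 1 library left out. With the replicate number as a block, which is a shared number and not a known pairing, 1408 were higher and 1321 lower, with 59 and 63 interactions. Of 144 named called genes 140 kept their call by DESeq2, 142 by limma-voom, 142 with the block, 87 over 13 libraries, 83 against 1.5-fold and between 113 and 144 with 1 library left out. Upper-quartile scaling gave 1615 higher and 1343 lower, and library size alone 1625 and 1324. Another scaling moved the median of all genes to at most 0.032. With the 4 wild-type libraries alone 4 glycolysis genes rose and 5 fell, 5 class I genes rose and 6 fell, and 3 NF-kB genes rose. The causes of these shifts were not tested. In the simulated counts, with 2 libraries a group, changes of 1.5-fold were often missed.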
